A study of Homo sapiens with 9 samples.

Results

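The TGF-beta ligands, receptors and SMADs were followed in U87 glioma cells that had received either form of the microRNA miR-376a* or a control duplex. The genes were taken from a fixed list of 10, namely the ligand genes TGFB1, TGFB2 and TGFB3, the receptor genes TGFBR1, TGFBR2 and TGFBR3, the receptor-activated SMAD genes SMAD2 and SMAD3, and the feedback inhibitor genes SMAD7 and SKIL. They were 10 of 19775 named genes, read by 32 of 41097 probe sets that map to a single gene. All 10 genes passed the filter on dim signals, as did 27 of the 32 probe sets, while the other 5 never exceeded a signal of 27.0.

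U87 is an established human glioma line. Cells were transfected with 50 nM of the miR-376a*A duplex, 50 nM of the miR-376a*G duplex or 50 nM of a control duplex, all with Lipofectamine RNAiMAX, and RNA was taken after 72 h. Each group had 3 Affymetrix expression arrays, which the labels call biological replicates without naming separate cultures or days, so p-values measure the spread between these arrays. The design asked what each form changes relative to the control duplex, and the arrays also allow the A form to be set against the G form.

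TGF-beta ligands are secreted in a latent form, stored in the matrix and released by integrins and proteases. An active ligand binds TGFBR2, which recruits and phosphorylates TGFBR1, and TGFBR1 in turn phosphorylates SMAD2 and SMAD3, which enter the nucleus with SMAD4 and act on transcription. SMAD7 blocks the activated receptor and SKIL (SnoN) represses the SMAD complex, and both are transcribed in response to the pathway. In glioma, TGF-beta signalling is known for promoting invasion, matrix production and suppression of immune cells.

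miR-376a* is the 5′ arm of the miR-376a hairpins on chromosome 14, now named miR-376a-5p, and its precursor is known to be edited from adenosine to inosine in the seed, the stretch that pairs with target transcripts. Inosine pairs like guanosine, so the A and G duplexes stand for the unedited and edited forms. RefSeq (GRCh38.p14) lists a mature 5′ arm for MIR376A1 at chr14:101040788-101040809 and for MIR376A2 at chr14:101040080-101040100, both on the plus strand. They are shown because the arms are what the duplexes are named after, unedited and with the seed (bases 2 to 8) in capitals. The sequences of the transfected duplexes, and the arm they follow, were not given in the sources used here.
hsa-miR-376a-5p: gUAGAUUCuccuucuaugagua
hsa-miR-376a-2-5p: gGUAGAUUuuccuucuauggu
The annotated arms differ in their seeds, UAGAUUC in the first and GUAGAUU in the second.

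An array of each of 2 groups stood apart from its group, namely those labelled replicate 1 of miR-376a*A and replicate 1 of control. Across 12587 tested genes, correlations of that miR-376a*A array were 0.987 and 0.990 with the remaining control arrays, against 0.925 and 0.934 with the other arrays of its own label. The array labelled control replicate 1 had correlations of 0.990 and 0.982 with the other miR-376a*A arrays, against 0.935 and 0.934 with the remaining control arrays. Pairs of miR-376a*G arrays stood at 0.986 to 0.988 (Pearson's r over genes, not independent points). Groups are given below as labelled, and each member's result and each gene list's counts are given again without both arrays, which leaves 2 arrays each for miR-376a*A and control. Those arrays were left out because of what they measured, so p-values without them are not independent of that choice. Median signals were 18 to 21.1 on miR-376a*A arrays, 21.7 to 24.6 on miR-376a*G arrays and 18.5 to 22 on control arrays, and the spread between 3 arrays per group limits the precision of every value. Of 5 mesenchymal glioma markers, VIM (2107 to 2975 over the 9 arrays), CD44 (1475 to 2193) and SPARC (1401 to 2278) were bright on every array, CHI3L1 stood at 112 to 1366 and NES was dim (32.4 to 61.6). Their summed signal was 6767 to 8798 on miR-376a*A, 5315 to 5704 on miR-376a*G and 6098 to 7329 on control arrays, and CHI3L1 among them was lower with miR-376a*G than with control (log2 difference -3.03, adjusted p = 1.30e-05). Of the 5 glial markers, GFAP (1.48 to 5.66) and S100B (0.68 to 1.30) were near 0. OLIG2, too dim to test, gave 8.97 to 12.8 on miR-376a*A, 20.9 to 30.8 on miR-376a*G and 13.3 to 14.1 on control arrays, SOX2 gave 10.2 to 26.4 over all arrays, and SOX10 was higher with miR-376a*G (0.77, adjusted p = 0.0346). Summed signals on miR-376a*A, miR-376a*G and control arrays were 45.9 to 58.2, 76.2 to 89.4 and 44.7 to 58.4 for glial markers (2 of 5 tested) and 2458 to 3912, 2153 to 2355 and 2292 to 3441 for neuronal markers (4 of 6). They were 87.8 to 173, 167 to 244 and 82.6 to 205 for endothelial (2 of 5), 56.3 to 82.1, 80.9 to 100.1 and 51.7 to 67.6 for epithelial (1 of 5), and 30.4 to 54.8, 40.6 to 52.9 and 21.5 to 48.3 for leukocyte markers (0 of 4). Of the neuronal markers, MAP2 (-2.23, adjusted p = 0.00327) and SYT1 (-1.12, adjusted p = 7.45e-04) were lower with miR-376a*G than with control and TUBB3 (0.32, adjusted p = 0.0108) was higher, and of the endothelial markers KDR was higher (1.23, adjusted p = 0.0174). The neuronal marker SNAP25 gave 254, 1656 and 1825 on miR-376a*A, 197, 192 and 179 on miR-376a*G, and 1498, 240 and 214 on control. Its high arrays were replicates 2 and 3 of miR-376a*A and the array labelled control replicate 1, as were those of the neuronal sum. The part of these markers in the results was not tested.

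With miR-376a*G, 5 of the 10 genes fell relative to control, and they came from every level of the pathway. TGFBR1 signal was 3.79-fold lower, TGFB2 3.42-fold, SMAD7 2.14-fold, SMAD3 1.90-fold and SKIL 1.75-fold, and no member rose. In RNA from whole cultures, fewer cells with a transcript and less of it per cell cannot be told apart. Over all tested genes 33.4% were called in this comparison, 18% higher and 15.4% lower (limma, adjusted p under 0.05). The median log2 difference was -0.72 over the 10 members and 0.12 over all tested genes. Without both arrays that stood apart, 5 members were lower and 2 were higher, TGFB1 and TGFBR3, against 25% and 31.2% of all genes, and the medians were -0.60 and 0.12. With miR-376a*A, none of the 10 was called against control as labelled. The plot of signals by array shows all 10 genes.

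**Figure D1:**
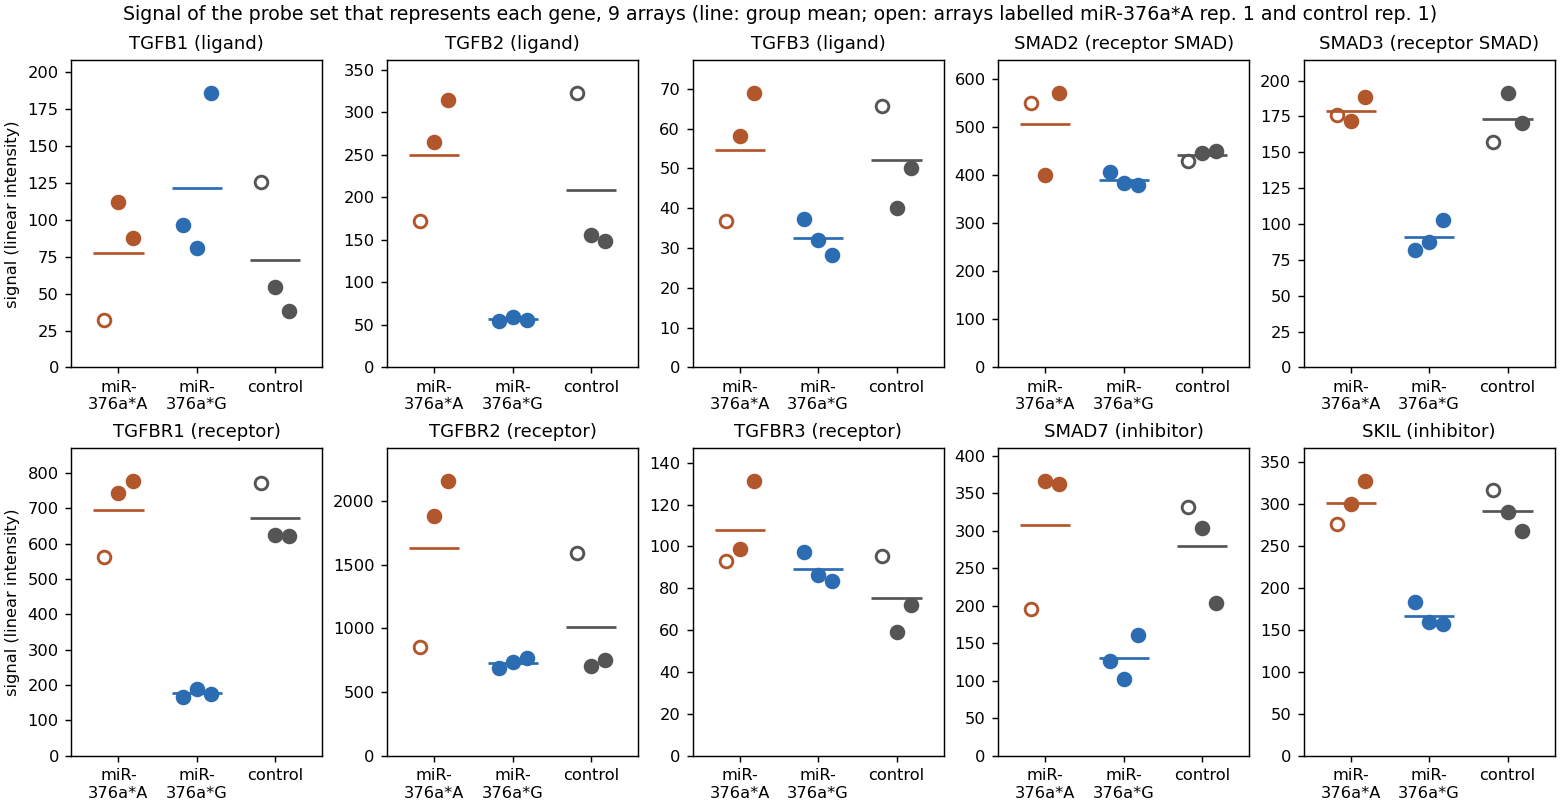
Deposited signal (linear intensity, y axis, a scale per panel) of the probe set that represents each of the 10 genes on each array, with miR-376a*A, miR-376a*G and control from left to right. Points are arrays, open points the 2 arrays that stood apart, and lines are group means of 3 arrays. For TGFBR1 the miR-376a*G arrays lie at 166 to 188, below every other array, and for TGFBR2 the open miR-376a*A point sits near the filled control points and the open control point near the filled miR-376a*A points.

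Among the ligands, TGFB2, a TGF-beta isoform that depends on the co-receptor TGFBR3 for efficient binding, was the member called. Signals of the probe set that represents it (Entrez gene 7042) were 172, 265 and 314 for replicates 1, 2 and 3 of miR-376a*A, 54.7, 58.8 and 56.1 on miR-376a*G, and 323, 156 and 149 on control. All miR-376a*G arrays lay below every other array, while miR-376a*A and control overlapped, and means were 250 ± 72.3 for miR-376a*A, 56.5 ± 2.10 for miR-376a*G and 209 ± 98.4 for control (SD, n = 3 each). The mean of miR-376a*A was the highest and that of miR-376a*G the lowest, with miR-376a*A and control within their spread. The log2 difference of miR-376a*G from control was -1.77 (SE 0.31, adjusted p = 0.00256), and -1.42 without both arrays (SE 0.11, adjusted p = 2.14e-06). All 4 tested probe sets of TGFB2 were lower with miR-376a*G, by -0.93 to -1.77. Against control, miR-376a*A differed by 0.31 (SE 0.31, adjusted p = 0.886). Without both arrays that difference was 0.92 (SE 0.12, adjusted p = 1.72e-04), with 265 and 314 on miR-376a*A against 156 and 149 on control.

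TGFB1, the isoform most often described in wound repair and immune control (Entrez gene 7040), varied widely within groups. Its signals were 32.5, 112 and 87.5 on miR-376a*A, 96.8, 81.2 and 186 on miR-376a*G, and 126, 54.7 and 38.6 on control, and all 3 groups overlapped. Group means were 121 ± 56.6 for miR-376a*G, 77.4 ± 40.8 for miR-376a*A and 73.1 ± 46.5 for control (SD, n = 3 each), and no neighbours in that order differed beyond their spread. The difference of miR-376a*G from control was 0.81 (SE 0.56, adjusted p = 0.293) and that of miR-376a*A from control 0.09 (adjusted p = 0.972). Without both arrays these were 1.29 (adjusted p = 0.00391) and 1.09 (adjusted p = 0.021), and control replicates 2 and 3 lay below all of miR-376a*G and below miR-376a*A replicates 2 and 3. A second TGFB1 probe set was too dim to test, at 7.43 to 9.24, 19.3 to 27.0 and 2.39 to 10.2 on miR-376a*A, miR-376a*G and control arrays.

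TGFB3, another isoform (Entrez gene 7043), gave 36.8, 58.1 and 68.9 on miR-376a*A, 37.4, 32.1 and 28.2 on miR-376a*G, and 65.8, 40.1 and 50.2 on control. The miR-376a*G arrays lay below all control arrays, but the difference of -0.64 (SE 0.27, adjusted p = 0.0973) did not pass, nor did -0.46 without both arrays (adjusted p = 0.0601). Means were 54.6 ± 16.4 for miR-376a*A, 32.6 ± 4.59 for miR-376a*G and 52.0 ± 12.9 for control (SD, n = 3 each), and miR-376a*A differed from control by 0.05 (adjusted p = 0.969; 0.49 and 0.0851 without both arrays).

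Among the receptors, TGFBR1, the type I kinase that phosphorylates SMAD2 and SMAD3, had the largest fall of the 10 genes with miR-376a*G as labelled. Its signals (Entrez gene 7046) were 561, 743 and 777 on miR-376a*A, 166, 188 and 174 on miR-376a*G, and 771, 625 and 622 on control. The miR-376a*G values sat together far below both other groups, which overlapped each other, with means of 694 ± 116 for miR-376a*A, 176 ± 10.8 for miR-376a*G and 673 ± 85.1 for control (SD, n = 3 each). The difference of miR-376a*G from control was -1.92 (SE 0.15, adjusted p = 3.72e-05), and -1.82 without both arrays (adjusted p = 5.50e-08). All 3 TGFBR1 probe sets fell, with differences of -1.92, -1.73 and -1.30. The difference of miR-376a*A from control was 0.04 (SE 0.15, adjusted p = 0.959), or 0.28 without both arrays (SE 0.09, adjusted p = 0.0266). In that setting 2 of the 3 TGFBR1 probe sets were called higher, and the last was not (0.40, adjusted p = 0.149).

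TGFBR2, the type II receptor that binds the ligand first, followed another pattern. Its signals (Entrez gene 7048) were 852, 1881 and 2159 on miR-376a*A, 688, 732 and 769 on miR-376a*G, and 1590, 702 and 752 on control. The high arrays were replicates 2 and 3 of miR-376a*A and the array labelled control replicate 1, and the remaining array labelled miR-376a*A lay nearer to the low control arrays. Group means were 1630 ± 689 for miR-376a*A, 730 ± 40.5 for miR-376a*G and 1014 ± 499 for control (SD, n = 3 each), and in the order of means miR-376a*A was highest and miR-376a*G lowest, with neighbours overlapping. As labelled, neither miR-376a*A (0.68, SE 0.38, adjusted p = 0.886) nor miR-376a*G (-0.37, SE 0.38, adjusted p = 0.486) passed the test against control. Without both arrays TGFBR2 was 2.77-fold higher with miR-376a*A than with control (log2 difference 1.47, SE 0.10, adjusted p = 1.34e-06), and with miR-376a*G it differed from control by 0.00 (SE 0.09, adjusted p = 0.964). A second TGFBR2 probe set gave 165, 418 and 544 on miR-376a*A, 131, 141 and 134 on miR-376a*G, and 413, 119 and 93.4 on control. Its difference of miR-376a*A from control was 1.01 (adjusted p = 0.90), and 2.17 without both arrays (adjusted p = 2.23e-06), where miR-376a*G was also higher than control by 0.36 (adjusted p = 0.0445).

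TGFBR3 (betaglycan, Entrez gene 7049), a co-receptor without kinase activity that presents ligand to TGFBR2, gave 93.0, 98.8 and 131 on miR-376a*A, 97.2, 86.5 and 83.6 on miR-376a*G, and 95.6, 59.0 and 71.9 on control. All groups overlapped, and means were 108 ± 20.6, 89.1 ± 7.17 and 75.5 ± 18.6 (SD, n = 3 each) in the same order. As labelled, the differences from control were 0.52 for miR-376a*A (SE 0.20, adjusted p = 0.886) and 0.26 for miR-376a*G (adjusted p = 0.354). Without both arrays they were 0.80 (SE 0.17, adjusted p = 0.00333) and 0.44 (SE 0.15, adjusted p = 0.0311). The second TGFBR3 probe set differed without both arrays by 0.42 for miR-376a*A (adjusted p = 0.024) and by 0.14 for miR-376a*G (adjusted p = 0.322), so the call for miR-376a*G rested on a single probe set.

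Of the receptor-activated SMADs, SMAD3, the DNA-binding effector phosphorylated by TGFBR1, fell with miR-376a*G. Its signals (Entrez gene 4088) were 176, 172 and 188 on miR-376a*A, 82.1, 87.3 and 102 on miR-376a*G, and 157, 191 and 170 on control. The miR-376a*G arrays lay below all others while miR-376a*A and control overlapped, with means of 179 ± 8.64 for miR-376a*A, 90.6 ± 10.6 for miR-376a*G and 173 ± 17.3 for control (SD, n = 3 each). The difference of miR-376a*G from control was -0.93 (SE 0.13, adjusted p = 8.97e-04), and -0.99 without both arrays (adjusted p = 5.39e-05). Of 4 SMAD3 probe sets 3 were lower with miR-376a*G, by -0.93, -1.70 and -2.84, and the fourth differed by -0.47 (adjusted p = 0.101). The largest of these belonged to a dim probe set with 2.20 to 7.63 on miR-376a*G and 29.6 to 77.8 on control. miR-376a*A differed from control by 0.05 (SE 0.13, adjusted p = 0.935), and by 0.00 without both arrays (adjusted p = 0.986).

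The probe sets of SMAD2, the other receptor-activated SMAD, disagreed. The brightest, which represents the gene (Entrez gene 4087), gave 550, 400 and 570 on miR-376a*A, 406, 384 and 380 on miR-376a*G, and 430, 445 and 451 on control. Means were 507 ± 93.3, 390 ± 14.3 and 442 ± 10.9 (SD, n = 3 each), and although every miR-376a*G array lay below every control array, the difference of -0.18 (SE 0.14, adjusted p = 0.348) did not pass, nor did -0.20 without both arrays (adjusted p = 0.202). A second SMAD2 probe set gave 362, 324 and 354 on miR-376a*A, 178, 174 and 166 on miR-376a*G, and 346, 337 and 333 on control. There the miR-376a*G arrays lay far below the rest, at -0.97 from control (SE 0.10, adjusted p = 1.87e-04), and another was lower by -0.65 (adjusted p = 0.00267). A further pair of dim SMAD2 probe sets was lower by -2.66 (adjusted p = 0.00672) and -1.12 (adjusted p = 0.00508), and the last differed by -0.50 (adjusted p = 0.139), so 4 of 6 were called. The mean over the SMAD2 probe sets differed by -1.01 (adjusted p = 3.08e-04), and whether the probe sets read different transcripts was not tested. Against control, miR-376a*A differed by 0.18 for the representing SMAD2 probe set (adjusted p = 0.886), or 0.09 without both arrays (adjusted p = 0.632).

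Both feedback inhibitors were lower with miR-376a*G. SMAD7, the inhibitory SMAD that brings ubiquitin ligases to the receptor, was read by a single probe set (Entrez gene 4092) with 195, 366 and 363 on miR-376a*A, 127, 102 and 160 on miR-376a*G, and 332, 303 and 204 on control. The miR-376a*G arrays lay below all others, and miR-376a*A and control overlapped, with means of 308 ± 97.8 for miR-376a*A, 130 ± 29.4 for miR-376a*G and 280 ± 67.4 for control (SD, n = 3 each). SMAD7 differed from control by -1.10 with miR-376a*G (SE 0.29, adjusted p = 0.0184), and by -0.96 without both arrays (adjusted p = 0.00155). Leaving out replicate 1 of miR-376a*G ended the SMAD7 call (-1.10, adjusted p = 0.0571), as did leaving out replicate 2 of miR-376a*G (-0.94, adjusted p = 0.073) or of control (-1.03, adjusted p = 0.0617) and scaling to the hybridisation controls (-0.70, adjusted p = 0.0857). With miR-376a*A it differed from control by 0.11 (SE 0.29, adjusted p = 0.936), and by 0.55 without both arrays (adjusted p = 0.0576).

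SKIL, a repressor that is degraded when the pathway is switched on and transcribed again afterwards, gave 276, 300 and 327 on miR-376a*A, 183, 160 and 156 on miR-376a*G, and 316, 290 and 269 on control (Entrez gene 6498). The miR-376a*G arrays lay below all others, with means of 301 ± 25.8 for miR-376a*A, 166 ± 14.7 for miR-376a*G and 292 ± 24.0 for control (SD, n = 3 each). SKIL differed from control by -0.81 with miR-376a*G (SE 0.12, adjusted p = 0.00124; -0.75 and 1.02e-04 without both arrays) and by 0.04 with miR-376a*A (adjusted p = 0.939; 0.17 and 0.258 without both arrays). The other tested SKIL probe sets were much dimmer and differed by 0.22 (adjusted p = 0.59) and -0.10 (adjusted p = 0.812) between miR-376a*G and control. The SKIL call was lost when all its probe sets were averaged (-0.23, adjusted p = 0.388) and under scaling to the hybridisation controls (-0.40, adjusted p = 0.0538).

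Over all 27 tested probe sets of the 10 genes, 16 were lower with miR-376a*G than with control and 0 were higher, where 32.3% of 24316 single-gene probe sets were called and 15.6% were lower. Without both arrays 17 were lower and 3 higher, against 54.2% called. In 7 of the 10 genes every miR-376a*G array lay below every control array, as in 22.3% of all tested genes. These were TGFB2, TGFB3, TGFBR1, SMAD2, SMAD3, SMAD7 and SKIL. The remaining genes, TGFB1, TGFBR2 and TGFBR3, overlapped between these groups.

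**Figure D2:**
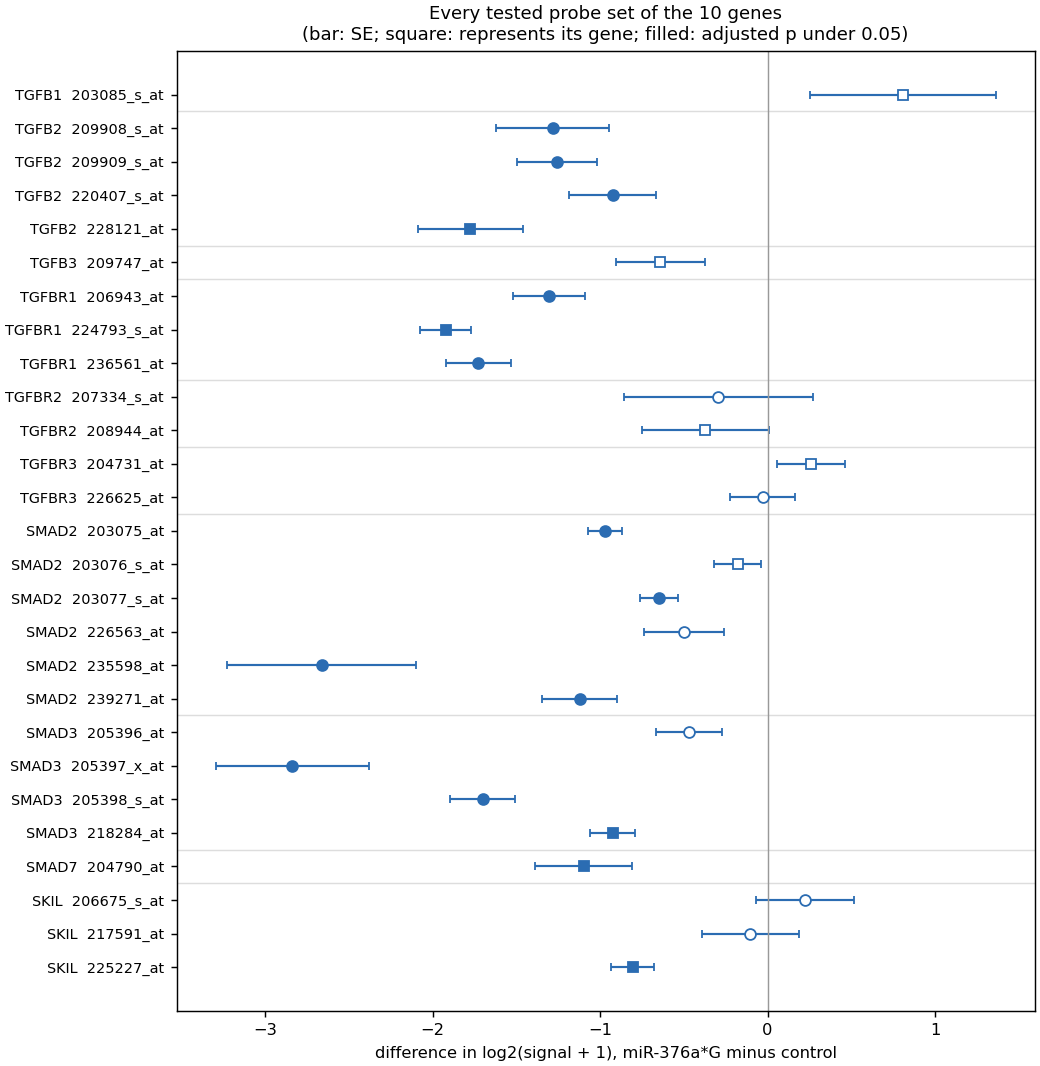
Difference of miR-376a*G from control in log2(signal + 1) for each of the 27 tested probe sets, grouped by gene. Squares mark the probe set that represents each gene, bars are standard errors, and open symbols have an adjusted p of 0.05 or more. All probe sets of TGFB2 and TGFBR1 lie below 0, and those of SMAD2 spread over -0.18 to -2.66.

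The 5 genes that fell kept a negative difference under every scaling run, but the size of the difference and some calls depended on the scaling. Hybridisation controls are bacterial and phage transcripts added to every array. Their mean log2 signal was 7.82 to 7.92 on miR-376a*A, 7.12 to 7.29 on miR-376a*G and 7.51 to 7.70 on control arrays. The values as deposited are relative to the rest of each array. Between miR-376a*G and control, the median over the tested genes stood at 0.12 in the deposited values, at -0.12 with each array centred on its median and at 0.52 with arrays scaled to those controls, and 53.9%, 28.2% and 85.6% of calls were higher. TGFBR1, TGFB2 and SMAD3 were lower under each of these scalings, with TGFBR1 at -2.16 and -1.52 after centring and after scaling to the hybridisation controls. Under the last scaling TGFBR3 was higher (0.66, adjusted p = 0.0248), and TGFBR2 (0.03, adjusted p = 0.944) and SMAD2 (0.23, adjusted p = 0.225) changed sign without passing the test.

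With miR-376a*A, 0 of the 10 genes and 0% of all 12587 tested genes were called by limma against control as labelled, while 463 genes had an unadjusted p under 0.05. The median difference was 0.10 over the members and -0.02 over all genes. Without both arrays 5 members were higher and 0 lower, namely TGFB1, TGFB2, TGFBR1, TGFBR2 and TGFBR3, where 41.9% of all genes were called, 19% higher and 22.9% lower, and the medians were 0.52 and 0.00. All 5 were ligands or receptors, while the ligand gene TGFB3 (0.49, adjusted p = 0.0851) and SMAD2, SMAD3, SMAD7 and SKIL were not called. SMAD7 differed by 0.55 (adjusted p = 0.0576), more than the called TGFBR1 at 0.28. By single probe sets, 2 of SKIL (0.96, adjusted p = 0.0219, and 0.88, adjusted p = 0.0106) and 1 of SMAD2 (0.65, adjusted p = 0.00144) were higher. In the same setting 14 of the 27 probe sets were higher and 0 lower, against 40.2% of all probe sets called in either direction. No test was made of whether the forms differ in their effect on ligands and receptors as a class.

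**Figure D3:**
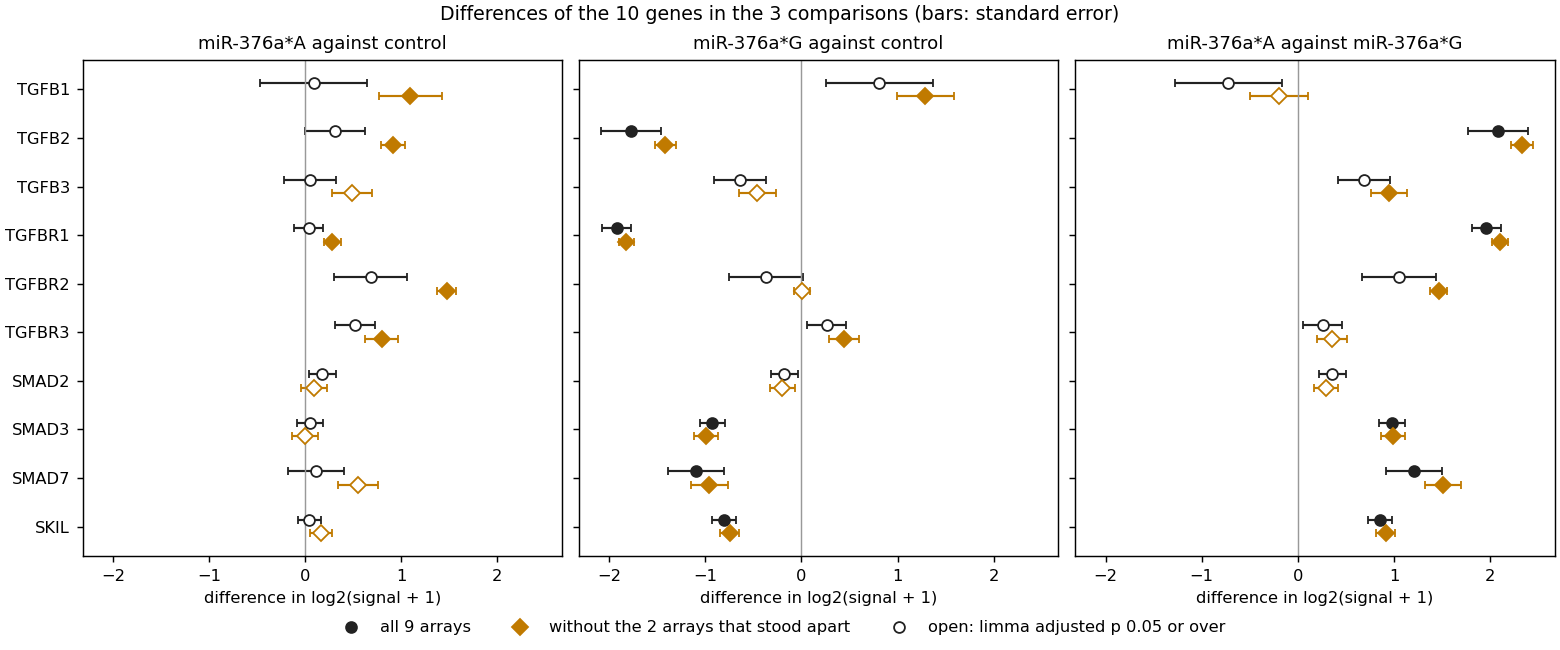
Log2 difference for each of the 10 genes in the 3 comparisons, with standard errors as bars. Circles use all 9 arrays as labelled, diamonds leave out the 2 arrays that stood apart, and open symbols have an adjusted p of 0.05 or more. For miR-376a*A against control every circle is open, and the diamond of TGFBR2 lies at 1.47.

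Set against each other, the miR-376a*A arrays were higher than the miR-376a*G arrays in 5 of the 10 genes and lower in 0, where 38.2% of all genes were called, 16.4% higher and 21.8% lower. This comparison uses the same miR-376a*G arrays as the one above. TGFB2 was 4.24-fold higher with miR-376a*A (log2 difference 2.08, SE 0.31, adjusted p = 0.00100) and TGFBR1 3.89-fold (1.96, SE 0.15, adjusted p = 3.16e-05). SMAD7 was higher by 1.21 (adjusted p = 0.0108), SMAD3 by 0.98 (adjusted p = 6.01e-04) and SKIL by 0.85 (adjusted p = 8.36e-04). The median difference was 0.91 over the members and -0.14 over all genes. After scaling to the hybridisation controls, which moved the median of all genes to -0.81, the last 3 were not called (0.54, adjusted p = 0.147; 0.31, 0.114; 0.18, 0.327).

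For TGFBR2, all miR-376a*A arrays lay above all miR-376a*G arrays, with a difference of 1.05 that did not pass (SE 0.38, adjusted p = 0.0571). TGFB3 differed by 0.69 (adjusted p = 0.0703). The representing probe set of SMAD2 differed by 0.36 (adjusted p = 0.069), while the other 5 were called higher and their mean with it differed by 0.98 (adjusted p = 3.20e-04). TGFBR3 differed by 0.26 (adjusted p = 0.346) and TGFB1 by -0.72 (adjusted p = 0.332). In 6 of the 10 genes the miR-376a*A arrays lay above every miR-376a*G array, as in 21.8% of all genes. Without both arrays 7 members were higher, with TGFBR2 at 1.47 (adjusted p = 1.61e-07) and TGFB3 at 0.95 (adjusted p = 0.00131) added, where 59.6% of all genes were called, 25.7% higher and 34% lower. Of the probe sets 17 of 27 were higher and 0 lower, where 36.1% of all were called and 16.6% were higher. Without both arrays 22 of the 27 were higher and 0 lower, against 58.3% called in either direction.

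Genes that store and release the latent ligand were lower with miR-376a*G, 9 of 14 tested and 0 higher, where 33.4% of all tested genes were called and 15.4% were lower, with a median of -0.89 against 0.12 over all genes. Without both arrays 9 were lower and 1 was higher, LTBP2, where 56.1% of all genes were called, and ITGB3 differed by -3.22. The integrin β3 gene ITGB3 gave 675, 705 and 861 on miR-376a*A, 58.7, 56.4 and 57.7 on miR-376a*G, and 625, 522 and 569 on control. Its difference of miR-376a*G from control was -3.29 (SE 0.13, adjusted p = 1.68e-06). The integrin genes ITGB5 (-0.96, adjusted p = 3.42e-04) and ITGB1 (-0.75, adjusted p = 0.00259) and the matrix proteoglycan gene DCN (-1.003, adjusted p = 0.00229) were lower too. With miR-376a*A none of the 14 was called against control as labelled, where ITGB3 differed by 0.38 and ITGB1 by 0.23 (adjusted p = 0.886 for each). Between the forms, 9 were higher with miR-376a*A and 0 lower, where 38.2% of all genes were called (12 and 0 without both arrays, against 59.6%), including ITGB3 (3.67), ITGB5 (1.16), ITGB1 (0.98) and the latent-ligand binding protein gene LTBP1 (0.89). After scaling to the hybridisation controls, ITGB1 (0.30, adjusted p = 0.0515) and LTBP1 (0.21, adjusted p = 0.168) were not called between the forms, nor were CD109 (0.42, 0.201) and SMAD4 (0.20, 0.302) of the other lists.

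Among other receptors and co-receptors of the family, 3 of 10 tested were lower with miR-376a*G and 1 was higher, a share close to the 33.4% of all genes called, with a median of 0.15. The counts were again 3 and 1 without both arrays, where ACVR1 differed by -3.17. ACVR1, a type I receptor for bone morphogenetic proteins and activins, gave 528, 547 and 615 on miR-376a*A, 64.7, 50.2 and 57.0 on miR-376a*G, and 558, 521 and 522 on control. The miR-376a*G arrays lay far below the rest, by -3.20 from control (SE 0.13, adjusted p = 1.72e-06). The type II receptor gene BMPR2 was lower by -1.43 (adjusted p = 4.72e-05) and CD109, a TGF-beta co-receptor, by -1.35 (adjusted p = 0.00539). ACVR1C, a type I receptor for nodal and activins, was higher by 1.67 (adjusted p = 0.0158), a call that ended when replicate 1 of miR-376a*G (adjusted p = 0.0563), replicate 2 of miR-376a*G (0.0505) or replicate 2 of control (0.0583) was left out. Between the forms ACVR1, BMPR2 and CD109 were higher with miR-376a*A by 3.28, 1.55 and 1.10, the last not called when its probe sets were averaged (0.63, adjusted p = 0.0795), and ACVR1C differed by -1.65 (adjusted p = 0.0147, or 0.0521 without replicate 1 of miR-376a*G). These were 3 higher and 1 lower of 10, where 38.2% of all genes were called, and 4 and 2 without both arrays, against 59.6%. In this group 0 were called between miR-376a*A and control, with ACVR1B at 0.12 and BMPR2 at 0.12 (adjusted p = 0.886 for each).

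Of 13 other SMADs, partners and nuclear regulators, 3 were lower with miR-376a*G and 0 higher, with a median of -0.25, where 15.4% of all genes were lower and 33.4% were called. Without both arrays 7 of the 13 were lower and 0 higher, with a median of -0.34, where 25% of all genes were lower and 56.1% were called, and SMAD4 differed by -1.01. SMAD4, the common partner of the activated SMADs, gave 343, 291 and 310 on miR-376a*A, 171, 169 and 172 on miR-376a*G, and 245, 348 and 343 on control. All miR-376a*G arrays were below the rest, at -0.85 from control (SE 0.15, adjusted p = 0.00272). The acetyltransferase gene CREBBP (-0.64, adjusted p = 0.0144) and ZFYVE9 (SARA), which anchors SMAD2 at the receptor (-0.61, adjusted p = 0.0181), were also lower. The CREBBP and ZFYVE9 calls were each lost without control replicate 2 (adjusted p = 0.0584 and 0.0553). CREBBP was also not called without miR-376a*G replicate 2 (adjusted p = 0.0576) and ZFYVE9 without miR-376a*G replicate 1 (adjusted p = 0.0756), and neither was after scaling to the hybridisation controls (-0.24, adjusted p = 0.338; -0.21, 0.375). Between the forms SMAD4 (0.87), ZFYVE9 (0.54) and the inhibitory SMAD gene SMAD6 (1.45) were higher with miR-376a*A and 0 were lower, where 38.2% of all genes were called. Without both arrays 5 were higher and 2 lower, against 59.6% of all genes called. The SMAD6 call (adjusted p = 0.0421) was lost when any array other than the pair that stood apart was left out (adjusted p = 0.0501 to 0.146). The ZFYVE9 call (adjusted p = 0.027) was lost when replicate 1 of miR-376a*A or any miR-376a*G array was left out (0.0501 to 0.103). No member of this list was called between miR-376a*A and control, where CREBBP differed by -0.39 and SMAD1 by -0.50 (adjusted p = 0.886 for each).

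Of 14 genes that turn over receptors and SMADs, 3 were higher with miR-376a*G than with control and 1 was lower, a share close to the 33.4% of all genes called, with a median of -0.05. Without both arrays 4 were higher and 4 lower, where 56.1% of all genes were called, and PMEPA1 differed by -2.16. PMEPA1, a TGF-beta-induced membrane protein that sequesters SMADs, gave 117, 272 and 228 on miR-376a*A, 31.4, 32.2 and 33.5 on miR-376a*G, and 242, 143 and 154 on control. The miR-376a*G arrays lay below all others, at -2.40 from control (SE 0.31, adjusted p = 5.21e-04). The deubiquitinase gene UCHL5 was higher by 1.18 (adjusted p = 8.01e-04), and the receptor ubiquitin ligase genes SMURF1 and SMURF2 by 0.67 (adjusted p = 0.00613) and 0.50 (adjusted p = 0.00444). Neither SMURF gene was called with arrays centred on their medians (0.43, adjusted p = 0.0981; 0.26, 0.141), and SMURF2 stood at 0.00 when its probe sets were averaged (adjusted p = 0.985). Between the forms PMEPA1 (2.55) and the ubiquitin ligase gene RNF111 (0.46) were higher with miR-376a*A, as the 2 genes called higher, and 3 were lower, including UCHL5 (-1.02) and SMURF2 (-0.41). Without both arrays these counts were 4 and 3. Of all genes, 38.2% were called between the forms as labelled and 59.6% without both arrays. RNF111 differed by -0.22 after scaling to the hybridisation controls (adjusted p = 0.152), and its call was lost without replicate 3 of miR-376a*A (adjusted p = 0.051) or replicate 1 of miR-376a*G (0.0595). SMURF2 was not called between the forms with arrays centred on their medians (-0.15, adjusted p = 0.391). In this list 0 were called between miR-376a*A and control, with STUB1 at -0.15 and STRAP at 0.28 (adjusted p = 0.886 for each).

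Of 25 tested transcripts listed as induced by TGF-beta in at least some cells, 10 were lower with miR-376a*G and 1 was higher, with a median of -0.35. Over all genes 33.4% were called, 15.4% lower and 18% higher. Whether TGF-beta induces the listed genes, ID1, ID2 and ID3 among them, in U87 cells was not tested. The transcription factor genes BHLHE40 and SNAI2 fell, with differences of -1.54 and -2.13 (adjusted p = 1.04e-05 for each), and the collagen gene COL5A1 differed by -2.45 (adjusted p = 2.91e-04) and the matrix gene TGFBI by -0.82 (adjusted p = 3.29e-04). The 1 higher gene, named after its value was seen, was the matricellular gene CCN1, with 224, 179 and 183 on miR-376a*A, 528, 464 and 547 on miR-376a*G, and 175, 230 and 269 on control (1.21, adjusted p = 8.76e-04). Without both arrays 11 were lower and 5 higher, with a median of -0.12, where 56.1% of all genes were called. Between the forms 11 were higher with miR-376a*A and 1 lower, where 38.2% of all genes were called (16 and 3 without both arrays, against 59.6%), with a median of 0.52 and with BHLHE40 at 1.69, SNAI2 at 2.27, TGFBI at 1.05 and fibronectin (FN1) at 1.66.

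Between miR-376a*A and control 0 of the 25 were called as labelled (median 0.23), with TGFBI at 0.23 and FN1 at 0.34 (adjusted p = 0.886 for each). Without both arrays 18 were higher and 5 lower, with a median of 0.50, and 12 of the 14 ligand activation and storage genes were higher and 0 lower (median 0.61), where 41.9% of all genes were called. LTBP2 belongs to both lists and is counted in each. IL11, THBS1 and ACTA2 were named after their values were seen, and their values are a description. IL11, a cytokine gene, gave 18, 275 and 272 on miR-376a*A, 45.8, 41.7 and 41.9 on miR-376a*G, and 267, 23.9 and 25.4 on control. THBS1, whose product activates latent TGF-beta, gave 27.1, 257 and 252 on miR-376a*A, 29.9, 20.0 and 29.2 on miR-376a*G, and 230, 28.0 and 14.7 on control. The smooth muscle actin gene ACTA2 gave 130, 595 and 627 on miR-376a*A, 122, 122 and 129 on miR-376a*G, and 501, 110 and 155 on control. In all 3 genes the high arrays were replicates 2 and 3 of miR-376a*A and the array labelled control replicate 1, as for TGFBR2. Their differences between miR-376a*A and control were 1.01, 1.37 and 0.83 as labelled (adjusted p = 0.886 for each), and 3.42, 3.58 and 2.22 without both arrays. The other lists without both arrays gave 2 higher and 2 lower receptors, 1 higher and 3 lower SMADs and partners, and 4 higher and 2 lower turnover genes.

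**Figure D4:**
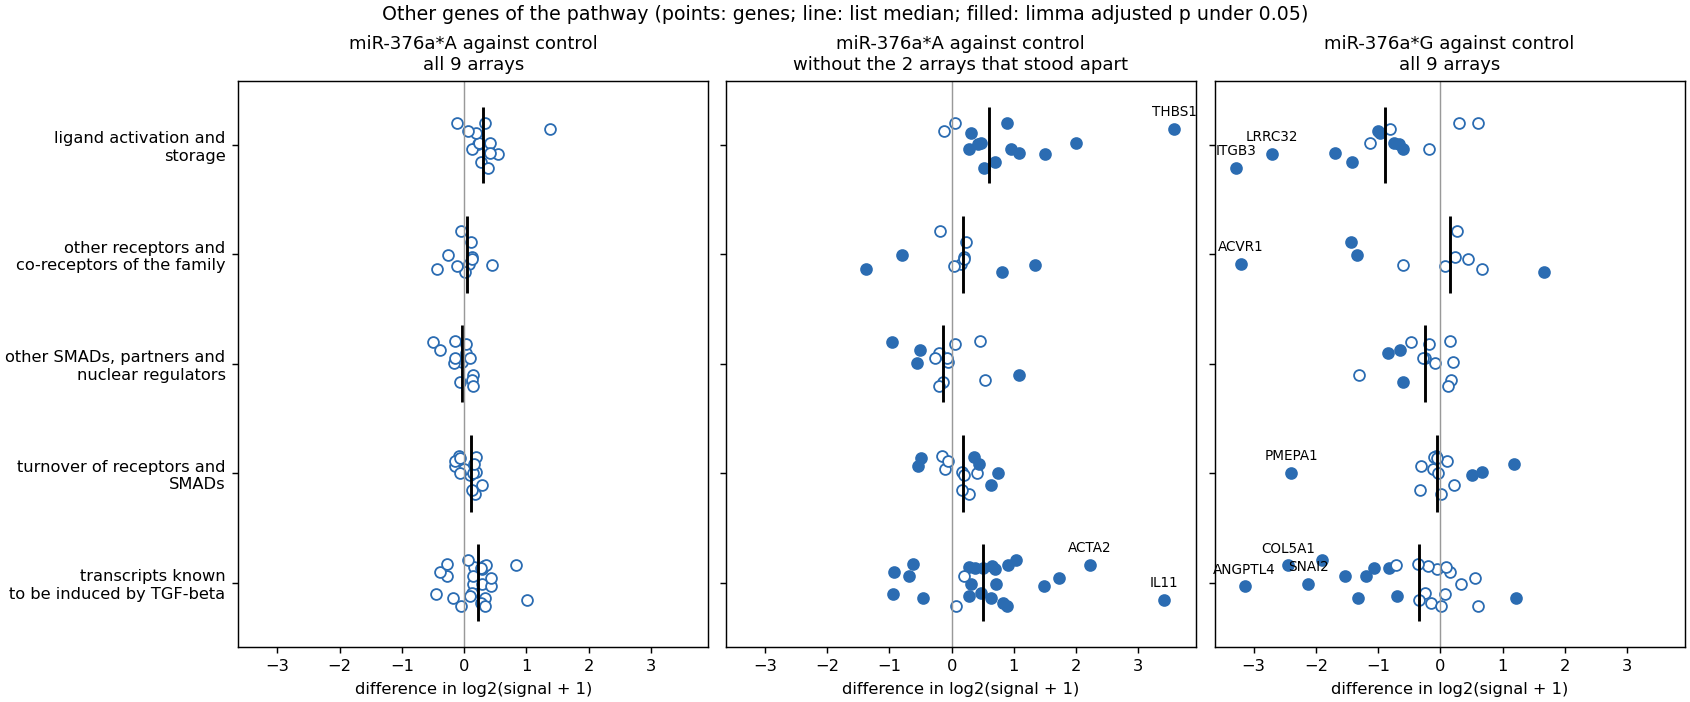
Log2 difference from control for each tested gene of the 5 other lists of the pathway, for miR-376a*A with all 9 arrays, miR-376a*A without the 2 arrays that stood apart, and miR-376a*G with all 9 arrays. Points are genes, filled where the adjusted p is under 0.05, and vertical lines are list medians. No point is filled in the first panel, and ITGB3 and ACVR1 lie furthest left of their lists in the last.

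The upstream sequence of the feedback inhibitors is shown because both are known SMAD-responsive genes and both were lower with miR-376a*G. Shown are the 250 bases before a start given by RefSeq (GRCh38.p14), the first listed of 3 for SMAD7 and the only 1 for SKIL. Capitals mark the SMAD-binding letters CAGAC or their complement GTCTG. The SMAD7 window lies at chr18:48950966-48951215 on the minus strand and the SKIL window at chr3:170357465-170357714 on the plus strand.
SMAD7: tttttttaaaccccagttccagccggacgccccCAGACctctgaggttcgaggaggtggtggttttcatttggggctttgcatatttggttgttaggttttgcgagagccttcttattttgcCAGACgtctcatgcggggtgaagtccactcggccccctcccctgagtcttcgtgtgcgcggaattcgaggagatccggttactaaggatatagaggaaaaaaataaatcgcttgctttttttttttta
SKIL: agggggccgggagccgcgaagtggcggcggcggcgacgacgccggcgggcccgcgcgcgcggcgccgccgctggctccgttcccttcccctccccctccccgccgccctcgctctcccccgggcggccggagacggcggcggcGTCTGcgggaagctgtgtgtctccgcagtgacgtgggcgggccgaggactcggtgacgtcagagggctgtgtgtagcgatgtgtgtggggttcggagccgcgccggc
The SMAD7 window shown holds 2 matches and the SKIL window 1. The windows of the other SMAD7 starts hold 1 match and 0. All 10 members matched the promoter table, with 26 start windows of 250 bases before to 50 after the start. CAGAC or GTCTG occurred in 12 of these windows (46.2%) and in 6 of the 10 genes, against 45.3% of all 35116 windows. The longer palindrome GTCTAGAC shares GTCT and AGAC with the shorter letters but holds neither of them in full. It occurred in 0 of the 26 and in 0.202% of all windows.

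The genes whose signals ran most like those of the called members were listed by Pearson's r of log2 signal over the 9 arrays, which share their groups and array scaling. For TGFB2 they were CTSO (0.997), UBP1 (0.996) and TCP11L1 (0.995), and for TGFBR1 ZNF395, NDRG1 (0.998 each) and ITPR1 (0.997). For SMAD3 they were FOSL2 (0.992), ABTB3 (0.990) and ENO2 (0.989), for SMAD7 MRC2 (0.985), WASF2 (0.984) and KREMEN1 (0.983), and for SKIL UBR3, FAM210A (0.995 each) and ATXN1 (0.993). They are given as a description.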

How the data were processed

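Transcript signals were read from 9 arrays, grouped by their labels, 3 per group. The authors deposited 1 linear intensity value per probe set and array. The submitters' processing notes name GCOS 1.4.0.036, and how it summarised probes is not given in the sources used here. Deposited intensity values were already scaled, with a mean near 100.01 on every array after trimming 2% at each end. A change in total messenger RNA cannot be seen in such values. No pair of arrays held identical values.

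Of 54675 probe sets, 41097 map to a single gene in the platform's probe table, 1801 to several and 11777 were not listed there; probe sets with several genes were not used, and 0 of them name a member. Of 19775 genes 19735 matched RefSeq (GRCh38.p14) by Entrez number. No build is stated with the deposited values, and the coordinates printed above are those of RefSeq (GRCh38.p14). Values were log2(signal + 1), which understates changes where signals are low. The probe set with the highest mean stood for its gene. Genes entered the test when their signal exceeded the array median on 3 or more arrays. limma 3.58.1 in R 4.3.3 was fitted to all 9 arrays with eBayes and an intensity trend (6 residual degrees of freedom), with Benjamini-Hochberg adjustment over all 12587 genes and a two-sided threshold of 0.05. The same fit on 24316 single-gene probe sets gave values of single probe sets. The steps were also run on simulated data, with noise drawn separately for each gene and array. That run cannot show how the steps behave when whole arrays stand apart.

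The members, lists, tests and alternatives were chosen with earlier results of these data known, including the 2 arrays left out. Named were all members and, in each other list, up to 4 called genes with the smallest p per comparison, or 2 where none was called. For each called member, the 3 most similar genes were named. ITGB6, BMPR1A, USP15 and PTHLH were not analysed here.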

Additional observations from a re-analysis of the deposited data

How the results depend on the processing

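Between miR-376a*G and control 4205 genes were called, 2994 to 4952 when each array was left out in turn, and 7066 without both arrays that stood apart, 7865 with limma's array weights and 6561 after scaling to the hybridisation controls. For the A form against the G form these counts were 4804, 3497 to 5602, 7508, 7866 and 8876. Between miR-376a*A and control they were 0, 0 to 0, 5268 and 5513 (weights), with 0 under every other setting run, so those calls rest on leaving out or weighting down the 2 arrays, whose weights were 0.154 and 0.165 against 0.674 to 2.93 for the others. Of the 10 members, 5 were called between miR-376a*G and control (4 to 6 leaving out 1 array, 8 with weights), 5 between the forms (5 to 7 leaving out 1 array, 8 after median centring, 9 with weights, 3 after hybridisation scaling) and 0 between miR-376a*A and control (0 to 0; 5 with weights, 5 without both arrays). These counts take calls in either direction. The 3 after hybridisation scaling were not all among the 5 called between the forms, because SMAD7, SMAD3 and SKIL lost their calls there. Signs turned for SMURF2 between miR-376a*G and control when its probe sets were averaged (-0.0034, adjusted p = 0.985), and after hybridisation scaling for ZFYVE9 (-0.13, adjusted p = 0.553) and RNF111 (-0.22, adjusted p = 0.152) between the forms. After hybridisation scaling 85.6% of miR-376a*G calls were higher, against 53.9% as deposited, and 7.56% of miR-376a*A over miR-376a*G calls, against 43%; median centring gave 28.2% and 71.1%. A pseudocount of 16, other filters, no intensity trend and quantile normalization changed the number of members called by at most 1.

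Deviations of same-numbered arrays from their group means correlated at -0.881 to 0.0457, and 0 of 9 arrays correlated best with its own number. Those means include the 2 arrays that stood apart, which pull the deviations of miR-376a*A and control in opposite directions. The check therefore cannot tell whether replicate numbers pair the arrays. With the replicate block 2936 genes were called for miR-376a*G against control, 3453 for the A form against the G form and 0 for miR-376a*A against control, and 4, 5 and 0 of the members. With that block the calls of SMAD7 (adjusted p = 0.0553), ACVR1C (0.0509), CREBBP (0.0536) and ZFYVE9 (0.0586) for miR-376a*G against control, and of ZFYVE9 (0.0745) and SMAD6 (0.0937) between the forms, were lost.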
